A study of Mus musculus with 10 samples.

Results

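Embryoid bodies (EBs) grown from 2 mouse embryonic stem cell (ESC) lines were sorted for induced primordial germ cells (iPGCs). Cells negative for both sorting markers were kept as somatic cells. The comparison described here sets the somatic cells of the Oct4-Gfp line (2 arrays) against the somatic cells of the V6.5 line (2 arrays), which are 4 of the 10 arrays measured. The arrays were chosen by their labels alone, and the question was which lineages differ between the somatic cells of the lines. All somatic cells came from EBs at day 6 of differentiation in hanging drops without LIF, the cytokine that keeps ESCs undifferentiated. V6.5 somatic cells were negative for the surface antigen SSEA1 and for the receptor cKit, and the labels give their genetic background as 129xBL6 F1. Oct4-Gfp somatic cells carried a green fluorescent reporter of Pou5f1 (Oct4) transcription, were negative for that reporter and for cKit, and have a background labelled mixed. Line, genetic background, reporter and sorting gate therefore change together, and cannot be told apart. The other arrays are 2 each of undifferentiated V6.5 ESCs (SSEA1+/cKit+), V6.5 iPGCs (SSEA1+/cKit bright) and Oct4-Gfp iPGCs (reporter+/cKit bright). ESCs were depleted of feeder fibroblasts before EBs were made, and live cells were sorted after trypsin dissociation.

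An EB lays down its lineages in roughly the order of the gastrulating embryo. Cells first pass through a state like the primitive streak, with the T-box factor Eomes and the homeobox factor Mixl1, and from there make mesoderm and definitive endoderm. The first blood is primitive erythroid, arises with endothelium from mesoderm that transcribes the receptor Kdr, and carries embryonic globins under the control of Gata1 and Klf1. Heart mesoderm, which transcribes Isl1, Tbx5 and Nkx2-5, arises in the same days, and visceral endoderm with Afp and Ttr often covers the EB.

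Each array gave 45101 probe set signals, as intensity on a linear scale. Median signals were 76.0 and 72.9 on the V6.5 somatic arrays and 91.6 and 78.2 on the Oct4-Gfp somatic arrays. The background, taken as the 0.95 quantile of 44 olfactory receptor probe sets, was 17.2 and 19.4 on the former and 25.4 and 20.3 on the latter. Over the tested probe sets the arrays of V6.5 correlated at r = 0.987 and those of Oct4-Gfp at 0.980, whereas arrays of different lines correlated at 0.972 to 0.977. The ratio of 3-prime to 5-prime signal of Gapdh, a measure of RNA integrity, was 1.74 and 1.74 on the V6.5 arrays and 1.65 and 2.05 on the Oct4-Gfp arrays. Nothing in the labels says that the arrays of a group came from separate cultures, so p-values measure only the spread between these arrays, which may be technical.

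Few genes passed the test between the lines. Signals were compared as log2 of the signal plus 14.8 with limma, in a model of all 5 groups, and a gene was called at a Benjamini-Hochberg adjusted p under 0.05. Of 12207 genes tested, each by its brightest probe set (its main probe set), 4 rose in Oct4-Gfp somatic cells (0.0328%) and 6 fell (0.0492%), 0.0819% in all. The median log2 difference over all genes, Oct4-Gfp minus V6.5, was 0.003. Among 26368 probe sets, 7 were higher (0.0265%) and 15 lower (0.0569%), and 3287 had an unadjusted p under 0.05 (12.5%). Of the 15 lower probe sets 7 carry several gene symbols or none in the annotation and are not named here. The largest log2 differences among these were -3.40 (3077 and 1824 in V6.5 against 288 and 154 in Oct4-Gfp), -3.26 (261 and 121 against 7.51 and 3.65) and -3.24 (2450 and 1390 against 223 and 149), with adjusted p of 0.0360, 0.0247 and 0.0360 (limma). The genes that fell were, by their main probe sets, the embryonic globins Hba-x and Hbb-y, the erythroid factor Klf1, the blood group enzyme gene Art4, and the matrix genes Postn and Col3a1. Those that rose were Eomes, the gap junction gene Gjb2, the laminin receptor subunit Itga6 and the ubiquitin hydrolase Uchl1. Only probe sets above the array median on at least 2 of the 10 arrays were tested. Klf1 and Art4 met this through the V6.5 somatic arrays alone, and Gjb2 through the Oct4-Gfp somatic arrays alone. Such a gene is tested only where that line is high, so the direction of its call was partly fixed by the filter. When each of the 10 arrays was left out in turn, Eomes passed in 8 fits. Hba-x, Hbb-y, Postn and Col3a1 passed in 1, without Oct4-Gfp somatic replicate 1 (adjusted p from 0.0215 to 0.0354), and Klf1, Art4, Gjb2, Itga6 and Uchl1 in 0.

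**Figure D1:**
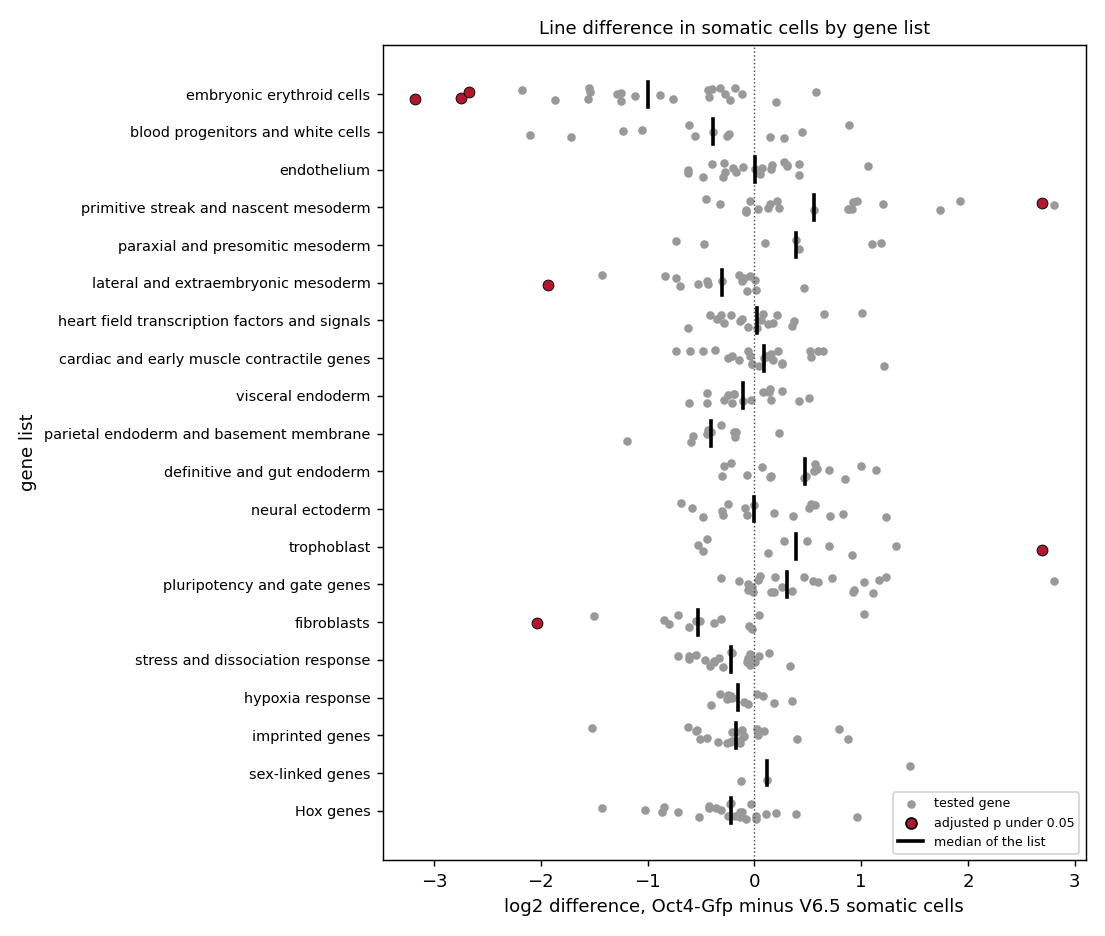
Log2 differences between Oct4-Gfp and V6.5 somatic cells (horizontal axis) for the tested genes of 20 gene lists (vertical axis, points spread vertically for clarity). Black bars are list medians and red points passed an adjusted p under 0.05. The erythroid list has the lowest median, -1, and the primitive streak list the highest, 0.56.

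The embryonic globins Hba-x and Hbb-y and the erythroid factor Klf1 fell in Oct4-Gfp somatic cells. Of 36 listed genes 31 were on the array and 24 were tested, and 3 fell and none rose at an adjusted p under 0.05, against 0.0492% of all genes. By a threshold of at least 3-fold with p under 0.01, as the study used and taken here as unadjusted, 5 were lower and 0 higher, against 0.0983% and 0.0737% of all genes (0.172% together). Without a test, 12 were at least 2-fold lower with no overlap between the arrays of the lines (0.516% of all genes) and 0 were as much higher (0.778%, and 1.29% in either direction). The list's median log2 difference was -1, with 22 of 24 below 0, beside 0.003 for all genes. Klf1, Epb42 and Trim10 were tested through the V6.5 somatic arrays alone, so these counts are partly set by the filter. The gene lists here and below were chosen with earlier results of these data known. Their counts beside the shares of all genes are therefore a description and no test of a list. With 1 array left out 2 genes fell (Oct4-Gfp somatic replicate 1) or 0 (each of the other 9 arrays), and 0 fell with the Gapdh ratio as a covariate or with only the 4 somatic arrays in the fit. Fewer erythroid cells and less erythroid RNA per cell cannot be told apart in these pooled cells.

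Hba-x encodes zeta globin, the alpha-like chain of primitive red cells. Its signal was 5185 and 3965 on the V6.5 arrays and 875 and 502 on the Oct4-Gfp arrays. Both Oct4-Gfp arrays lay far below both V6.5 arrays, and the gene fell by 2.75 on the log2 scale (SE 0.290, adjusted p = 0.0360, limma), or 6.71-fold. Hbb-y encodes epsilon y globin, a beta-like chain of the same cells, and gave 3809 and 2497 against 515 and 207. The lines did not overlap, and Hbb-y fell by 3.18 (SE 0.382, adjusted p = 0.0462, limma), or 9.04-fold. Each SE pools the spread of all 5 groups. On the ESC and iPGC arrays Hba-x (2.55 to 11.9) and Hbb-y (0.201 to 4.57) were within background. Those arrays add little spread, so the SEs of both globins may understate the spread between somatic arrays. The same may hold for other called probe sets that were low on the ESC and iPGC arrays. These were Hbb-bh1 (1.02 to 5.73 by its called probe set), Art4 (1.83 to 8.02), Postn (5.02 to 18.3) and Col3a1 (17.7 to 41.75 by its main probe set). Klf1 encodes the Kruppel-like factor that switches on globin and red cell membrane genes, and gave 592 and 441 against 87.4 and 52.0. It fell by 2.67 (SE 0.3, adjusted p = 0.0360, limma), or 6.37-fold, again with no overlap. The further probe sets of Hbb-y had differences of -3.04 and -3.13, neither of which passed (adjusted p = 0.0697 and 0.158).

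The third embryonic globin, Hbb-bh1, gave 9141 and 8011 on the V6.5 arrays against 2102 and 1687 on the Oct4-Gfp arrays by its main probe set. The arrays did not overlap, but the log2 difference of -2.18 (SE 0.327, adjusted p = 0.0933, limma) did not pass. A further Hbb-bh1 probe set gave 7176 and 6100 against 1157 and 1078, and fell by 2.55 (adjusted p = 0.00454, limma). The remaining one gave a difference of -2.49 (adjusted p = 0.0989, limma). The main probe sets of Hbb-bh1 and Hbb-y are of a design whose probes can match other transcripts too, so a share of signal from other beta-like globins is uncertain for both.

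The promoters of the 3 called erythroid genes are shown because these genes fell together. Each is the RefSeq window on GRCm38.p6 from 250 bases before the start site to 50 after it, read along the gene, and capitals mark matches to TGATAA or AGATAA (the letters of a GATA factor site), CCNCNCCC (a Kruppel-like factor type of site) and CCAAT, on either strand.
Hba-x, chr11:32276350-32276649, plus strand: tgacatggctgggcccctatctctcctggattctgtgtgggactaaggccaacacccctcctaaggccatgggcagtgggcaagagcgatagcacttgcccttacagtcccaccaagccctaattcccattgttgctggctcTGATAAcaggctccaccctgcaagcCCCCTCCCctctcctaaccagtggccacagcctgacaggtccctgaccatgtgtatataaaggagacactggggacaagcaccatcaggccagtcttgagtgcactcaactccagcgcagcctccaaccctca
Hbb-y, chr7:103853158-103853457, minus strand: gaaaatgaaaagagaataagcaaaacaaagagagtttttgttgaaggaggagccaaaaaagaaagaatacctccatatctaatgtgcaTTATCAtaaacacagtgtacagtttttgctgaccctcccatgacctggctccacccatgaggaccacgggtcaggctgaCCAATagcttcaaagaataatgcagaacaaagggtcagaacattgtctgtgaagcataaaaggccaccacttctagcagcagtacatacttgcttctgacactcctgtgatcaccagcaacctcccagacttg
Klf1, chr8:84901732-84902031, plus strand: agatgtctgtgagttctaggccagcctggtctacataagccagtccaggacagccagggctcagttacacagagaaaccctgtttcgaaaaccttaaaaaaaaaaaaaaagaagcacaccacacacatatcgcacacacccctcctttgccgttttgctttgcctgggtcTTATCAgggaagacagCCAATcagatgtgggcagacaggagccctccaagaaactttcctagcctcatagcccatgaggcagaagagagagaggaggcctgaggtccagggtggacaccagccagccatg
TGATAA or its reverse occurred once in each of the 3 windows, and in 9.05% of 32851 RefSeq promoter windows of this length. Both GATA forms were searched, and 18.6% of all windows held TGATAA or AGATAA. In Hba-x it lay from -108 to -103 and in Hbb-y from -162 to -157 relative to the start site. In Klf1 it lay from -80 to -75, beside a CCAAT from -64 to -60. CCNCNCCC was found in the window of Hba-x alone among these 3 (49.5% of all windows), CCAAT in those of Hbb-y and Klf1 (37.4%), and AGATAA in none of them (11.2%). No promoter window of Hbb-bh1 was used here. These are matches of letters and say nothing about binding in these cells.

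Other red cell genes had lower signals without passing the test. From here on, a gene that neither passed the test nor is one of the defining lineage markers was chosen after its values were seen. Gata1, the zinc finger factor of the erythroid program, gave 320 and 318 on the V6.5 arrays against 143 and 66.5 on the Oct4-Gfp arrays, a log2 difference of -1.56 (SE 0.311, adjusted p = 0.173, limma). Both Oct4-Gfp arrays were below both V6.5 arrays. Epb42, a protein of the red cell membrane skeleton, gave 137 and 90.8 against 35.9 and 9.11, and its difference was -1.86 (adjusted p = 0.158). Trim10, a ring finger protein of maturing red cells, gave 103 and 95.3 against 29.7 and 19.9, with a difference of -1.54 (adjusted p = 0.0718). Neither pair overlapped between the lines. Alas2, the erythroid enzyme that opens haem synthesis, had a difference of -1.55 (adjusted p = 0.320), and the anion exchanger Slc4a1 one of -1.29 (adjusted p = 0.222). For the erythropoietin receptor Epor the difference was -1.12 (adjusted p = 0.164), and for the transcription factors Nfe2 and Gfi1b -1.25 each (adjusted p = 0.213 and 0.182).

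The genes of the list that many cell types use were nearly level. The haem synthesis enzymes Urod, Fech, Cpox, Alad, Ppox and Uros had log2 differences between -0.43 and 0.20, with adjusted p from 0.359 to 0.587. The transferrin receptor Tfrc differed by -0.12 and the carbonic anhydrase Car2 by -0.22. Rhd, a blood group membrane protein, was the tested member with the highest log2 difference, 0.58, which did not pass (adjusted p = 0.351, limma). It gave 52.6 and 62.7 in V6.5 against 90.2 and 95.7 in Oct4-Gfp. Of the 7 members on the array but not tested, Hemgn gave 143 and 59.8 against 23.5 and 22.8. Art4, which carries the Dombrock blood group and was not on the list, gave 96.7 and 79.9 against 16.7 and 11.8. Both Oct4-Gfp values were within background, so Art4 was at least 3.87-fold lower (adjusted p = 0.0360, limma), a call lost with any 1 array left out (adjusted p from 0.0583).

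**Figure D2:**
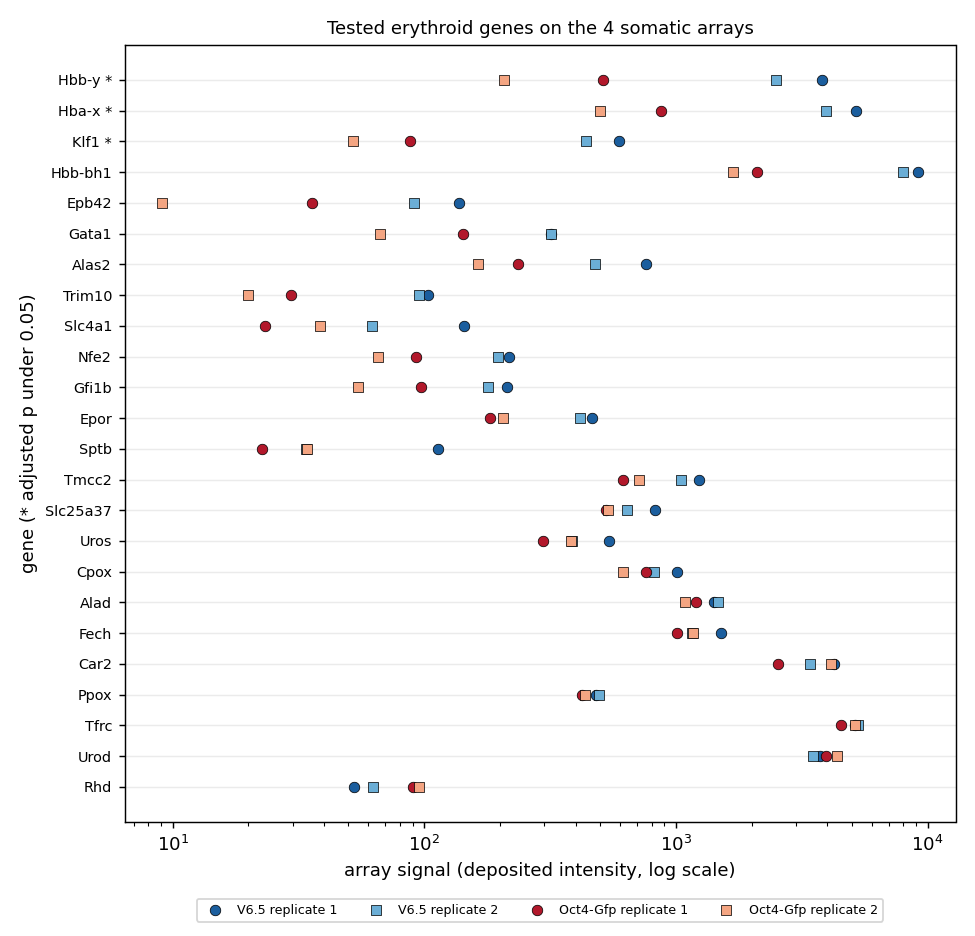
Signals of the 24 tested erythroid genes (vertical axis, ordered by log2 difference) on the 4 somatic arrays (horizontal axis, log scale). Blue points are V6.5, red points Oct4-Gfp, and levels can be compared between arrays of a gene but not between genes. The globins, Klf1 and Gata1 at the top are separated by line, and Tfrc and Urod near the bottom are close on all 4 arrays.

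Blood progenitor and white cell genes tended to be lower in Oct4-Gfp somatic cells, but none passed the test. The list's median log2 difference was -0.39, and between -0.84 and 0.07 with 1 array left out. Of 24 listed genes 23 were on the array and 13 tested, with 0 called in either direction. Lmo2 and Ikzf1 were lower by the 3-fold threshold with an unadjusted p under 0.01 (0.0983% of all genes), and 0 were higher (0.0737%). At least 2-fold without overlap, 4 were lower and 0 higher, against 0.516% and 0.778% of all genes. Tal1, which with Lmo2 specifies blood from mesoderm, gave 895 and 687 on the V6.5 arrays against 481 and 220 on the Oct4-Gfp arrays, a log2 difference of -1.23 (adjusted p = 0.368, limma). Lmo2, its adaptor partner, gave 803 and 959 against 369 and 177, a difference of -1.72 (adjusted p = 0.141). Ikzf1, a zinc finger factor of blood cells, gave 301 and 239 against 59.6 and 43.3, a difference of -2.11 (adjusted p = 0.162). For all 3 the lines did not overlap, nor did they for Myb, with 243 and 323 against 179 and 89.7 (difference -1.05, adjusted p = 0.269). Runx1, needed for definitive blood, gave 560 and 814 against 921 and 350, so that the Oct4-Gfp arrays lay on either side of the V6.5 pair (difference -0.24, adjusted p = 0.833). Over the list 2 genes were higher without overlap, 5 lower and 6 overlapped, where 22.6% of all genes were higher without overlap, 22.4% lower and 55% overlapped. The higher were the actin-binding genes of white cells Coro1a, with 38.9 and 43.1 against 74.0 and 105 (difference 0.89, adjusted p = 0.210), and Lcp1, with 66.1 and 65.6 against 94.4 and 72.7 (difference 0.28, adjusted p = 0.671). Laptm5, a lysosomal protein of blood cells, gave 411 and 348 against 284 and 206 (difference -0.61, adjusted p = 0.311). The leukocyte phosphatase Ptprc and the myeloid factor Spi1 were near background and not tested. Ptprc gave 3.41 and 16.3 against 3.11 and 21.5, and Spi1 21.4 and 30.6 against 32.3 and 16.9.

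Endothelial genes were near level. Of 28 listed genes, 28 were on the array and 21 tested, 0 were called, and their median log2 difference was 0.007 (range -0.62 to 1.07). In 13 of the 21 the arrays of the lines overlapped, as in 55% of all genes. Kdr, the VEGF receptor of blood and endothelial precursors, gave 1476 and 1236 in V6.5 against 1090 and 1441 in Oct4-Gfp, a difference of -0.11 (SE 0.317, adjusted p = 0.919, limma). Pecam1, an adhesion protein of endothelium, gave 321 and 172 against 267 and 226, a difference of 0.06 (SE 0.254, adjusted p = 0.948). The V6.5 arrays bracketed both Oct4-Gfp arrays in the case of Pecam1. Etv2, a factor that starts the endothelial program, gave 193 and 240 against 351 and 206 (adjusted p = 0.773).

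Primitive streak genes tended to be higher in Oct4-Gfp somatic cells, and of these Eomes passed the test. Of 27 listed genes 26 were on the array and 21 tested, 1 rose and 0 fell (0.0328% of all genes rose). T was not analysed here. By the 3-fold threshold with an unadjusted p under 0.01, 4 were higher and 0 lower, against 0.0737% and 0.0983% of all genes. At least 2-fold without overlap, 5 were higher and 0 lower, against 0.778% and 0.516%. Without a threshold of size, 11 were higher with no overlap between the lines, 1 was lower and 9 overlapped, where 22.6% of all genes were higher and 22.4% lower without overlap. The list's median log2 difference was 0.56, beside 0.003 for all genes. The called count was 0 without V6.5 somatic replicate 1 or Oct4-Gfp somatic replicate 2, 2 without Oct4-Gfp somatic replicate 1, and 0 with only the 4 somatic arrays in the fit.

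Eomes directs streak cells to endoderm and heart mesoderm and is also needed in trophoblast. Its signal was 103 and 140 on the V6.5 arrays and 815 and 904 on the Oct4-Gfp arrays. Both Oct4-Gfp arrays stood well above both V6.5 arrays, and Eomes rose by 2.69 on the log2 scale (SE 0.175, adjusted p = 0.00454, limma), or 6.46-fold. A further probe set gave 54.4 and 78.0 against 426 and 351 and rose by 2.33 (adjusted p = 0.0217, limma). On the ESC arrays the main probe set gave 330 and 292, and on the 4 iPGC arrays 349 to 419. The Oct4-Gfp somatic signal thus exceeded that of every ESC and iPGC array, and the V6.5 somatic signal was below them all. Its promoter window is shown with the same motifs in capitals, as the only called streak gene.
Eomes, chr9:118477939-118478238, plus strand: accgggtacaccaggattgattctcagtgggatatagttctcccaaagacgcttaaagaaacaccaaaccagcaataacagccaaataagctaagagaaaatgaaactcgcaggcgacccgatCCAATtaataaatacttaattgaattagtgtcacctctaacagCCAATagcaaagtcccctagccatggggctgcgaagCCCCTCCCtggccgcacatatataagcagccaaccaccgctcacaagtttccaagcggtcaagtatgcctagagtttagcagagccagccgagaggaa
The window held CCAAT at -127 to -123 and at -84 to -80 and CCNCNCCC at -48 to -41, and neither TGATAA nor AGATAA.

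Mixl1, the homeobox factor of the streak, gave 115 and 209 on the V6.5 arrays against 765 and 522 on the Oct4-Gfp arrays. The lines did not overlap, and the log2 difference was 1.92 (SE 0.282, adjusted p = 0.0922, limma). Its signals on the ESC arrays were 91.2 and 76.8 and on the iPGC arrays 98.7 to 258, so the Oct4-Gfp somatic arrays were the highest of the 10. Mesp1, the factor of the earliest heart and cranial mesoderm, gave 97.3 and 91.0 against 143 and 383, a difference of 1.20 (adjusted p = 0.270). Sp5, a target of Wnt signalling in the streak, gave 10.3 and 8.21 against 44.9 and 92.2. Both V6.5 values were within background, which made it at least 3.53-fold higher in Oct4-Gfp, although the difference did not pass (adjusted p = 0.193). Tdgf1, the Nodal co-receptor, gave 76.0 and 234 against 392 and 2683. Its Oct4-Gfp arrays differed so much from each other that a log2 difference of 2.80 had an SE of 0.791 (adjusted p = 0.249).

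Smaller differences in the same direction that did not pass were those of the retinoic acid hydroxylase Cyp26a1 (0.92, adjusted p = 0.243), the Nodal gene (0.87, adjusted p = 0.353) and the organiser factor Lhx1 (0.88, adjusted p = 0.249). Evx1, a homeobox factor of the posterior streak, had 746 and 963 against 1221 and 1289, a difference of 0.56 (adjusted p = 0.276). Wnt3 (-0.04) and its target Axin2 (0.03) were level, and Snai1, the factor of epithelial to mesenchymal transition, was the lowest at -0.46 (adjusted p = 0.476). Among 18 paraxial mesoderm genes on the array 7 were tested and 0 called, with a median of 0.39. Tbx6, the factor of presomitic mesoderm, was not tested and gave 32.1 and 21.9 against 21.1 and 16.6.

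**Figure D3:**
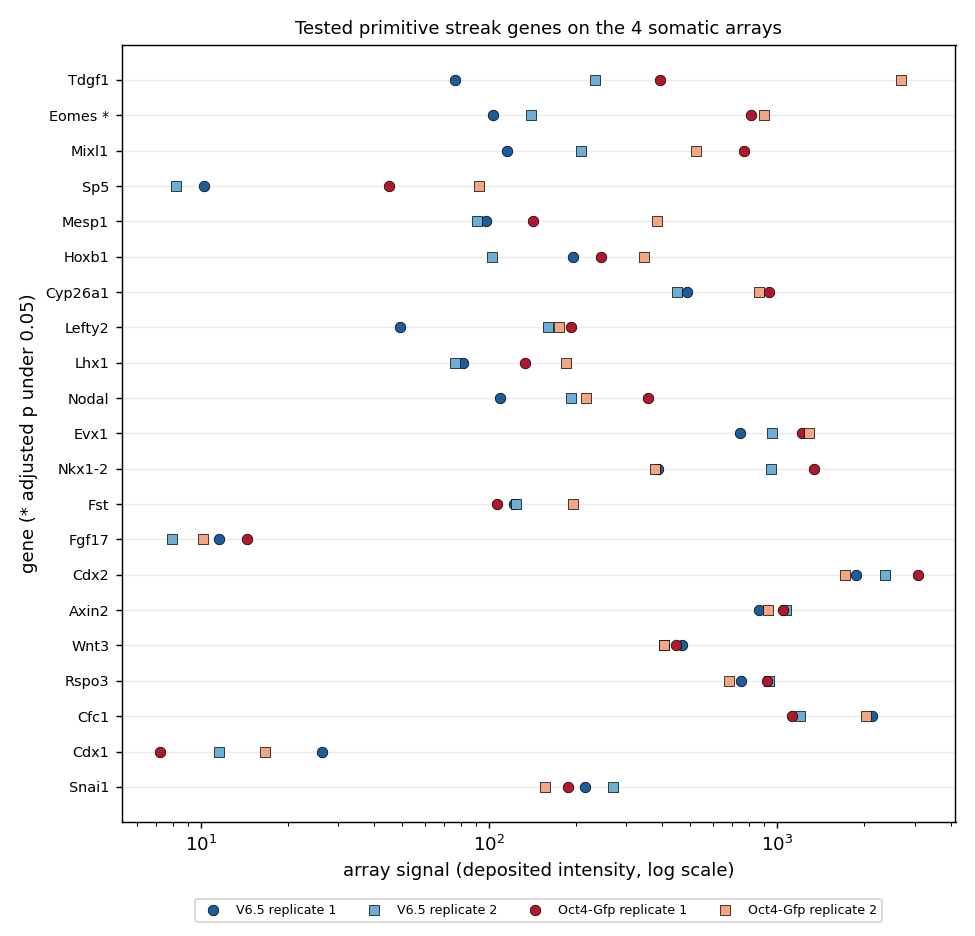
Signals of the 21 tested primitive streak genes (vertical axis, ordered by log2 difference) on the 4 somatic arrays (horizontal axis, log scale). Blue points are V6.5, red points Oct4-Gfp, and an asterisk marks Eomes, the member called. Eomes, Mixl1, Sp5 and Tdgf1 are separated by line, with Tdgf1 spread from 392 to 2683 within Oct4-Gfp.

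Transcripts of undifferentiated cells were checked beside this result, since Tdgf1 belongs to both lists. Of 25 listed pluripotency and gate genes 24 were tested and 0 called, but 8 were higher in Oct4-Gfp without overlap and 0 lower (22.6% and 22.4% of all genes), with a median of 0.31. At least 2-fold without overlap, 4 were higher and 0 lower, against 0.778% and 0.516% of all genes. By the 3-fold threshold with an unadjusted p under 0.01, 1 was higher and 0 lower, against 0.0737% and 0.0983%. The summed signal of the list was 8218 and 9640 on the V6.5 arrays and 10310 and 12770 on the Oct4-Gfp arrays. Pou5f1, the gene behind the reporter, gave 9.19 and 70.7 against 63.9 and 107, and the arrays overlapped (difference 1.11, adjusted p = 0.425, limma). Kit, the gene of the shared gate, gave 134 and 261 against 193 and 240 by its main probe set, with overlap (difference 0.19, adjusted p = 0.822). A further Kit probe set gave 56.9 and 96.7 against 45.1 and 44.4, without overlap (difference -0.59, adjusted p = 0.349). Fut4, listed with the gate genes, gave 212 and 171 against 136 and 261 (difference -0.01, adjusted p = 0.994). Its RNA is no measure of the SSEA1 antigen, which was used to sort V6.5 alone. Nanog (1.03, adjusted p = 0.259) and Sox2 (1.23, adjusted p = 0.302) were higher without overlap. Other streak genes that were higher in Oct4-Gfp differed in their ESC signals. Tdgf1 gave 10740 and 11530 in ESCs, Nodal 1813 and 1627 and Sp5 190 and 146, above both somatic groups. Cyp26a1 gave 14.2 and 21.5, Lhx1 0.194 and 2.51 and Evx1 22.6 and 30.9, below both. The part of residual undifferentiated cells in the streak differences was not tested.

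Of the other genes that rose, Itga6 and Uchl1 had far higher signals in undifferentiated cells than in either somatic group. Itga6 gave 284 and 314 in V6.5 against 713 and 744 in Oct4-Gfp somatic cells, and rose by 1.25 (SE 0.150, adjusted p = 0.0462, limma). ESC arrays gave 2876 and 2338 for it. Uchl1 gave 22.3 and 25.9 against 70.9 and 81.3, and rose by 1.22 (SE 0.135, adjusted p = 0.0360), where ESC arrays gave 2336 and 2438. Gjb2, the connexin of epithelial gap junctions, gave 36.4 and 18.2 against 188 and 142, rose by 2.12 (SE 0.239, adjusted p = 0.0360), and gave 56.1 and 40.4 in ESCs. For these 3 genes the arrays of the lines did not overlap, but none passed with any 1 array left out (lowest adjusted p 0.0583). Further called probe sets that are not the main one of their gene belonged to Rpsa, a ribosomal protein (48.1 and 40.6 against 183 and 152), and H2-K1, a histocompatibility gene (35.6 and 33 against 163 and 270). Both rose (adjusted p = 0.0451 and 0.0468, limma), and neither passed with any 1 array left out.

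No tested gene of heart mesoderm passed the test between the lines. Of 24 listed heart field genes 23 were on the array, 19 tested and 0 called, with a median log2 difference of 0.02 (range -0.62 to 1.01). Tbx20 gave 6240 and 6757 in V6.5 against 7100 and 6145 in Oct4-Gfp, a difference of 0.02 (SE 0.235, adjusted p = 0.977, limma). Isl1, the factor of heart progenitors, gave 617 and 918 against 1133 and 823 (difference 0.35, SE 0.461, adjusted p = 0.789). The arrays of the lines overlapped for both. Tbx5 gave 104 and 122 against 79.8 and 82.3, a small difference without overlap (-0.41, SE 0.125, adjusted p = 0.269). Nkx2-5 was within background on both lines, at 4.72 and 19.3 against 8.84 and 12.3, and was not tested. The member with the highest difference was Myocd, a co-activator of muscle genes, with 88.6 and 91.5 against 200.1 and 192 (difference 1.01, adjusted p = 0.241).

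No tested contractile gene passed either. Of 36 listed genes, 36 were on the array, 25 were tested and 0 called, 17 had overlapping arrays (55% of all genes), and the median was 0.09. Tnnt2, cardiac troponin T, gave 2134 and 925 in V6.5 against 2000 and 2263 in Oct4-Gfp (difference 0.59, SE 0.376, adjusted p = 0.545, limma). Actc1, the cardiac actin, gave 393 and 410 against 397 and 302 (difference -0.20, adjusted p = 0.854). Myl7, the atrial myosin light chain, gave 85.9 and 6.97 against 33.6 and 228. Its arrays were further apart within each line than the line means were, and its difference of 1.21 had an SE of 0.829 (adjusted p = 0.574).

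Lateral mesoderm and connective tissue genes held the remaining genes that fell. Postn, the matrix protein periostin, gave 1189 and 1132 on the V6.5 arrays against 367 and 234 on the Oct4-Gfp arrays, and fell by 1.93 (SE 0.209, adjusted p = 0.0360, limma), or 3.81-fold. Col3a1, a fibrillar collagen chain, gave 1868 and 1705 against 523 and 341 and fell by 2.04 (SE 0.210, adjusted p = 0.0360), or 4.11-fold. A further Col3a1 probe set gave 231 and 170 against 56.5 and 35.9 and fell by 1.83 (adjusted p = 0.0360). In none of these did the lines overlap, and both genes passed in 1 of the 10 fits with an array left out, that without Oct4-Gfp somatic replicate 1.

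Beside Postn, 16 other lateral mesoderm genes were tested (17 of 18 listed), with 0 called, and the list's median was -0.30. Hand1, a factor of lateral and extraembryonic mesoderm, gave 5716 and 5593 against 4412 and 3913 (difference -0.44, SE 0.264, adjusted p = 0.520, limma). Vcam1, an adhesion molecule of the allantois and of blood vessels, gave 249 and 166 against 62.1 and 71.6 (difference -1.42, adjusted p = 0.0692). It met the filter for testing through the V6.5 somatic arrays alone. Of 17 listed fibroblast genes 14 were tested, 1 fell (0.0492% of all genes) and 9 of them were lower without overlap (22.4% of all genes), with a median of -0.53. Within this list the chain Col1a2 gave 2010 and 2543 against 839 and 739 (difference -1.5, adjusted p = 0.248), whereas Col1a1 gave 6508 and 6541 against 6859 and 5804 (difference -0.05). The summed fibroblast signal was 30690 and 30940 in V6.5 and 24270 and 19720 in Oct4-Gfp, and the part of feeder fibroblasts in it was not tested. Thy1, another gene of that list, went the other way, with 173 and 107 against 289 and 299 (difference 1.03, adjusted p = 0.233).

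No tested endoderm gene passed the test between the lines. Of 32 listed visceral endoderm genes 29 were on the array and 17 tested, 0 were called, 14 overlapped (55% of all genes) and the median log2 difference was -0.11. Afp was not tested, and its main probe set gave 15.4 and 20.1 in V6.5 against 12.1 and 8.73 in Oct4-Gfp, close to background. Ttr, a carrier of thyroid hormone made by visceral endoderm, gave 267 and 721 against 529 and 192 (difference -0.44, SE 0.789, adjusted p = 0.854, limma), and the V6.5 arrays bracketed 1 of the Oct4-Gfp arrays. Hnf4a, a factor of visceral endoderm, was not tested and gave 10.8 and 34.3 against 73.1 and 63.9 by its main probe set, and 6.52 to 14.7 in Oct4-Gfp by 3 others.

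Definitive endoderm genes, 16 tested of 20 listed, had 0 called and a median of 0.47, with 6 higher without overlap, 3 lower and 7 overlapping (22.6%, 22.4% and 55% of all genes). Sox17, a factor of definitive endoderm, gave 105 and 82.8 against 146 and 221 (difference 0.85, SE 0.487, adjusted p = 0.507, limma). Foxa2, a factor of endoderm and axial mesoderm, was not tested and gave 18.1 and 44.3 against 28.6 and 51.3. Cxcr4, a chemokine receptor, gave 2400 and 2320 against 3350 and 3182 (difference 0.47, adjusted p = 0.311). Parietal endoderm genes, 11 tested of 12 listed, had a median of -0.40 and 0 called, and in the trophoblast list, 10 tested of 14 listed, Eomes was the gene that rose.

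In the remaining lists (neural ectoderm, stress and dissociation, hypoxia, imprinted, sex-linked and Hox genes) 0 tested genes were called. Their medians lay between -0.22 and 0.12. Xist, the transcript of the inactive X chromosome, gave 47.0 and 21.5 in V6.5 against 130 and 102 in Oct4-Gfp (difference 1.46, adjusted p = 0.269, limma). Dlk1, an imprinted growth regulator, gave 4629 and 4530 against 1641 and 1542 (difference -1.52, adjusted p = 0.144). Neither overlapped between the lines. The 3 tested sex-linked genes, Xist among them, had differences from -0.13 to 1.46, with a median of 0.12.

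The same lines were compared in their iPGCs, on 4 arrays that share none with the somatic comparison. Of 26368 probe sets 0 passed limma's test there, although 5526 had an unadjusted p under 0.05 (21%). The erythroid list had a median log2 difference of -0.16 in iPGCs and the streak list one of -0.27. The globins were within background on the iPGC arrays: Hba-x gave 3.83 to 11.9 and Hbb-y 0.213 to 2.18. Klf1 gave 54.5 and 44.0 in V6.5 iPGCs against 41.7 and 43.6 in Oct4-Gfp iPGCs. For Mixl1 the iPGC signals were 258 and 241 against 128 and 98.7, a difference of -1.05 that did not pass (adjusted p = 0.108, limma) and had the opposite sign to that in somatic cells.

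The difference of the line differences, somatic minus iPGC, was tested for every probe set, and 4 passed (3 higher, 0.0114%, and 1 lower, 0.00379%). By main probe sets 1 gene passed, Eomes (0.00819%). Eomes differed by 2.67 (SE 0.247, adjusted p = 0.0391, limma) by its main probe set, with 419 and 349 in V6.5 iPGCs and 403 and 374 in Oct4-Gfp iPGCs. Its further probe set differed by 2.93 (SE 0.276, adjusted p = 0.0391). For Hbb-bh1 a probe set differed by -2.43 (adjusted p = 0.0391), with iPGC signals of 5.73 or less, all within background. For Mixl1 the difference was 2.98 (SE 0.399, adjusted p = 0.136), for Hba-x -2.75 (adjusted p = 0.184) and for Klf1 -2.52 (adjusted p = 0.197), none of which passed. With any 1 array left out, Eomes and Hbb-bh1 no longer passed this test (lowest adjusted p 0.0816).

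**Figure D4:**
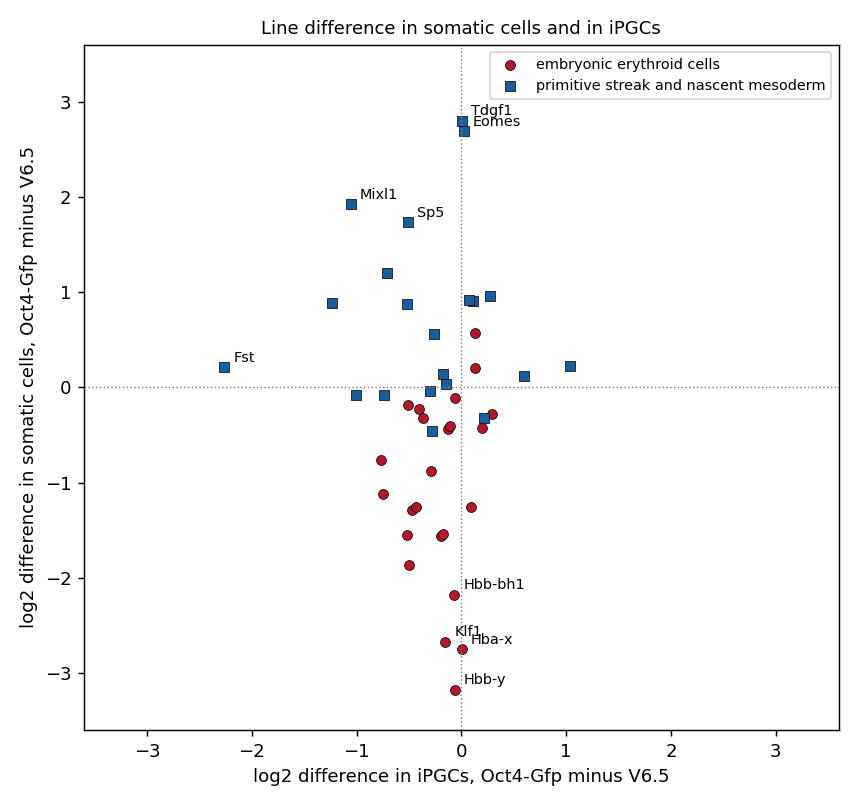
Log2 difference between the lines in somatic cells (vertical axis) and in iPGCs (horizontal axis) for the tested erythroid (red circles) and primitive streak (blue squares) genes. Eomes lies at 2.69 in somatic cells and 0.02 in iPGCs, and the erythroid genes spread downward to -3.18 near 0 on the horizontal axis.

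The arrays of each line also differed from one another. Of 12207 genes 58 were at least 2-fold apart between the arrays of both lines. In 49 of these the higher arrays were either V6.5 replicate 2 with Oct4-Gfp replicate 1 (32 genes) or V6.5 replicate 1 with Oct4-Gfp replicate 2 (17 genes). The replicate numbers are only names, and the genes were chosen by this spread, so the counts are a description. The former 32 held posterior Hox genes such as Hoxc10, which gave 232 and 1314 in V6.5 and 1280 and 243 in Oct4-Gfp. Tbx4, a factor of hindlimb and allantois, gave 1356 and 5384 against 3374 and 775. Nkx1-2, a gene of the posterior streak, gave 386 and 952 against 1342 and 377, and the visceral endoderm genes Ttr and Spink1 moved with them. The latter 17 held Myl7, Nebl, another muscle gene, and Upk3b and Bnc1, which mark mesothelium. Nebl gave 615 and 298 against 199 and 539. For these genes a mean of 2 arrays per line hides the spread, and Tbx4 and Myl7 had line differences of -0.73 and 1.21 with adjusted p of 0.718 and 0.574.

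**Figure D5:**
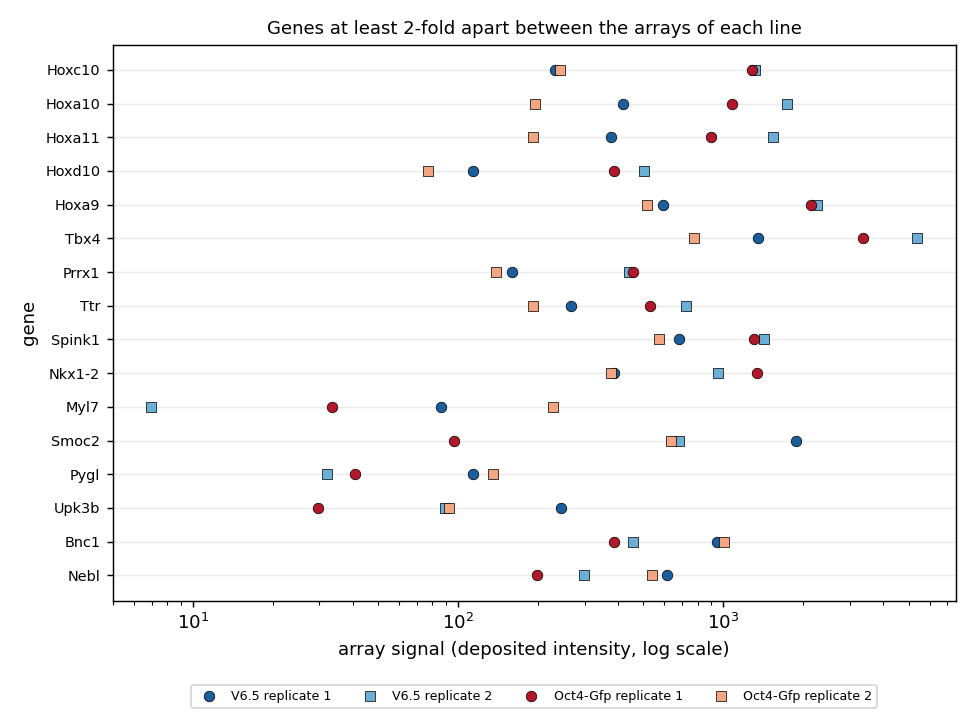
Signals of 16 genes that were at least 2-fold apart between the arrays of each line (vertical axis) on the 4 somatic arrays (horizontal axis, log scale). The first 10 genes, from Hoxc10 to Nkx1-2, are high in V6.5 replicate 2 and Oct4-Gfp replicate 1, and the last 6, from Myl7 to Nebl, are high in the other pair.

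The calls rested on few arrays. With only the 4 somatic arrays in the fit, limma called 0 probe sets. That fit has fewer arrays to estimate the spread, and it no longer pools the spread of the ESC and iPGC arrays. Which of these ended the calls was not tested. For Hba-x and Hbb-y the ESC and iPGC arrays were within background and added little spread. With arrays left out in turn, Eomes missed the threshold without V6.5 somatic replicate 1 (adjusted p = 0.0507) or Oct4-Gfp somatic replicate 2 (adjusted p = 0.0788). Leaving out an ESC or iPGC array cannot change the size of a somatic difference. With each of the 4 somatic arrays left out, Hba-x lay between -3.14 and -2.35 and Eomes between 2.50 and 2.89. With the Gapdh ratio as a covariate the difference of Hba-x was -2.67 (adjusted p = 0.0848) and that of Eomes 2.69 (adjusted p = 0.0358).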

How the data were processed

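RNA of 10 sorted samples (5 groups of 2) was amplified and hybridised to Affymetrix mouse arrays. The authors deposited 1 table of signal intensity per probe set on a linear scale, and the submitters' processing notes name MAS5. The study's methods name D-Chip for expression values and normalization, with no version in the sources used here, and which software made the deposited signals is not settled. Each array's mean was 500 when 2% of probe sets were left out at each end, and 0 columns were unassigned. Array number limits the precision.

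Control probe sets were dropped, and log2 of the intensity plus 14.8 (the 0.25 quantile of the table) was fitted in limma 3.58.1 (R 4.3.3) with 5 groups, 5 residual and 2.92 prior degrees of freedom. Probe sets above the array median on at least 2 arrays were tested (26368), with Benjamini-Hochberg adjustment over all of them. Of 45101 probe sets 34958 had 1 gene symbol in the platform annotation, 932 several and 9211 none. The probe set brightest on average over the 10 arrays stood for its gene. Where both arrays of the dimmer line were within background, folds are lower bounds, against the higher of the background and the signal. Promoters come from RefSeq on GRCm38.p6. Python 3.11.15, pandas 2.3.3, numpy 2.4.6 and matplotlib 3.10.9 drew the figures.

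The members and gene lists were chosen with earlier results of these data known. Named were the called genes with arrays of 1 line beyond both of the other (up to 5 in each direction in a list and 10 over all genes), and as lineage markers Hbb-bh1, Hba-x, Hbb-y, Gata1, Klf1, Tal1, Runx1, Kdr, Pecam1, Mixl1, Eomes, Mesp1, Tbx6, Nkx2-5, Tbx5, Tbx20, Isl1, Hand1, Myl7, Tnnt2, Actc1, Afp, Ttr, Hnf4a, Sox17, Foxa2, Pou5f1, Kit, Fut4 and Xist. The alternatives were other offsets, filters, scalings, array sets, moderation, a replicate block, the Gapdh ratio as a covariate, the study's 3-fold threshold, and leaving out each array.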

Additional observations from a re-analysis of the deposited data

Results flagged for a closer look

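The line difference in somatic cells differed from that in iPGCs for 4 probe sets, by limma's test of the difference itself. Eomes differed by 2.67 (SE 0.247, adjusted p = 0.0391) by its main probe set and by 2.93 (SE 0.276, adjusted p = 0.0391) by its further one, whose iPGC signals were 209 and 195 in V6.5 and 145 and 114 in Oct4-Gfp. Hbb-bh1 differed by -2.43 (SE 0.224, adjusted p = 0.0391), but its iPGC signals were all within background. Its iPGC difference could therefore be little else than near 0, and the value mostly repeats the somatic difference. A probe set without a gene name in the annotation used here, 1457124_at, differed by 3.80 (SE 0.339, adjusted p = 0.0391). Its somatic signals were 2.67 and 1.26 in V6.5 and 15.4 and 32.8 in Oct4-Gfp, close to background (log2 difference 1.18, adjusted p = 0.181). Its iPGC signals were 101 and 69.0 in V6.5 and 2.13 and 0.37 in Oct4-Gfp (log2 difference -2.62, adjusted p = 0.0695), and its ESC signals were 75.8 and 67.3, so the line with signal in iPGCs was V6.5. Leaving out any 1 array ended the call for both Eomes probe sets and for Hbb-bh1 (lowest adjusted p 0.0967, 0.0816 and 0.0816), and 9 of 10 such fits ended it for the unnamed probe set (adjusted p 0.0232 to 0.197).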

How the results depend on the processing

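The somatic calls, 7 probe sets higher and 15 lower, moved with the fit, higher count before lower. They were 42 and 29 by the study's 3-fold threshold, 36 and 28 with limma-trend, 2 and 1 with the Gapdh covariate, 2 and 3 with the olfactory receptor filter, 2 and 3 with the 8 day 6 arrays, and 1 and 1 with no filter. They were 0 and 0 with no moderation or only the 4 somatic arrays. With the filter on at least 4 arrays 9 were lower, with a floor in place of the offset 12 higher, and with the offset doubled 26 lower. Without single arrays they ran from 0 to 8 higher and 0 to 8 lower, where a lone array was assumed to vary like the other groups.

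With the replicate block, 1 probe set was higher and 4 lower, and with a block on only the 4 somatic arrays, or with crossed pairing there, 0 and 0 (both chosen after seeing the data). Equal numbers in the somatic groups had a correlation of -0.216, so numbers were not taken as pairs. With the block 1 erythroid gene was lower.

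Erythroid genes lower, 3, became 5 by the 3-fold threshold and with the offset doubled. They became 0 with the Gapdh covariate, the olfactory receptor filter, no filter, no moderation, the 8 day 6 arrays, or only the 4 somatic arrays with or without either block, and 0 to 2 without single arrays. Blood genes lower, 0, became 2 by the 3-fold threshold, 1 with limma-trend and 0 to 1 without single arrays. Streak genes higher, 1, became 4 by the 3-fold threshold, 2 with limma-trend, 0 with no moderation or only the 4 somatic arrays with or without either block, and 0 to 2 without single arrays (0 without V6.5 somatic replicate 1 or Oct4-Gfp somatic replicate 2, 2 without Oct4-Gfp somatic replicate 1). In iPGCs, where 0 were called, there were 1 higher and 32 lower by the 3-fold threshold, 192 and 740 with limma-trend, and 1 higher with no moderation. The interaction, 3 higher and 1 lower, gave 124 and 30 by the 3-fold threshold, 5 and 5 with the floor, 9 and 2 with limma-trend, and 0 and 0 with the Gapdh covariate, olfactory receptor filter, array weights, no filter, no moderation, the 8 day 6 arrays, quantile scaling or the block, and 0 to 3 and 0 to 1 without single arrays. The cause was not tested in any of these, and some of these fits also had fewer arrays or more probe sets.

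All 10 genes called by their main probe sets kept their direction throughout. Without single arrays this was fixed beforehand, since the arrays of the lines did not overlap for these genes. Tbx20, at 0.02, became -0.0339 with the Gapdh covariate. Without single arrays some log2 differences that had not passed crossed 0, where Fut4 ran from -0.44 to 0.43, Kdr from -0.31 to 0.0925, Kit from -0.26 to 0.63, Pecam1 from -0.37 to 0.48, Runx1 from -0.92 to 0.44, Tbx20 from -0.0794 to 0.13, Tnnt2 from -0.00422 to 1.19 and Ttr from -1.14 to 0.26.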
